A study of Homo sapiens with 4 samples.

Results

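The miR-17-92 cluster was represented on the arrays by the guide strands of its 6 hairpins, which are hsa-miR-17, hsa-miR-18a, hsa-miR-19a, hsa-miR-19b, hsa-miR-20a and hsa-miR-92a. They were picked by name, with earlier results of these data known, and they are 6 of the 851 human miRNAs in the array files. All 6 were detected on each of the 4 arrays. In HepG2 cells treated with berberine, none of them differed from its control by more than 2-fold at either time, and none was called over both times. Such calls were rare on these arrays, since only 0.508% of all measured miRNAs were past 2-fold in each direction at 2 h, 0.459% at 4 h, and 0.508% were called higher over both times, so a count of 0 among 6 does not set the members apart.

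HepG2 is a line of human hepatoma cells, and berberine is a plant isoquinoline alkaloid that slows the growth of such cells. The cells received 40 µM berberine chloride, or 0.08% DMSO (the solvent) as the control, for 2 h or for 4 h. The total RNA of each of these 4 conditions was hybridised to 1 Agilent one-colour human miRNA array. With 1 array per condition there is no replicate and no p-value at a single time, and an array and its condition cannot be told apart.

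As background, the 6 hairpins are cut from a single primary transcript of the host gene MIR17HG, which is switched on by MYC and E2F factors. The cluster is often called an oncomir, because it is amplified or raised in lymphomas and in many solid tumours, hepatocellular carcinoma among them. A guide strand is the arm of a hairpin that is mainly loaded into Argonaute, and it recognises mRNAs through its seed, bases 2 to 8. Known targets include CDKN1A, E2F1 and BCL2L11 for the miR-17 and miR-20a seed, CCN2 (CTGF) for miR-18a and BCL2L11 for miR-92a.

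The mature sequences are shown because the 6 members carry only 4 seeds, and because members with nearly the same sequence could share signal on an array. They were taken from RefSeq (GRCh38.p14), written 5′ to 3′ with the seed in capitals, and are in the order of their genomic position.
hsa-miR-17: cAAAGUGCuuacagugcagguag
hsa-miR-18a: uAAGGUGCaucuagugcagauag
hsa-miR-19a: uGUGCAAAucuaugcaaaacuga
hsa-miR-20a: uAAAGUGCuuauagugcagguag
hsa-miR-19b: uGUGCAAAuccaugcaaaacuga
hsa-miR-92a: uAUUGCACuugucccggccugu

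The 6 hairpins lie on the plus strand of chromosome 13, within 787 bases from chr13:91350605-91351391, and all 6 are inside the interval of the non-coding gene MIR17HG. The mature miR-17 is at chr13:91350618-91350640, miR-18a at chr13:91350756-91350778, miR-19a at chr13:91350939-91350961 and miR-20a at chr13:91351072-91351094. The mature miR-19b is at chr13:91351245-91351267 and miR-92a at chr13:91351361-91351382. Both of these also have a second hairpin on the minus strand of chromosome X, with the same mature sequence at chrX:134169683-134169705 for miR-19b and at chrX:134169544-134169565 for miR-92a. An array signal of miR-19b or miR-92a therefore cannot be assigned to the cluster on chromosome 13 alone. Positions of base differences are counted from 1 at the 5′ end. From miR-17 to miR-20a there are 2 differences, C1U and C12U, and from miR-19a to miR-19b there is 1, U11C. These pairs have the same seeds. The signals of such close pairs may not be independent on an array. From miR-17 to miR-106a, a miRNA of chromosome X, there is also 1 difference, C1A. The miR-17 signal may therefore not be that of the cluster alone either.

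The arrays were hybridised on 1 slide and scanned together, and they held 15739 features each. Of the human miRNAs, 199 to 242 were detected on an array, 197 on all 4 and 599 on none. The 75th percentile of the signal over those 197 miRNAs was 243 on the control array at 2 h, 169 with berberine at 2 h, 225 on the control array at 4 h and 297 with berberine at 4 h. Of the 197 miRNAs, 193 had a lower deposited signal with berberine than in the control at 2 h, and 185 had a higher one at 4 h. The 4 liver-enriched miRNAs used as markers were detected on each array, with a summed signal of 2594 to 4849. The dimmest of them on each array was hsa-miR-122, at only 22.4 to 39.9, so the sum comes mainly from the others. Markers of muscle (3 miRNAs) and of neurons (2 miRNAs) were detected on no array. Of 4 blood cell miRNAs, 2 were detected, on the berberine array at 4 h only, with a summed signal of 11.4. The defining markers of the other tissues were therefore at or near the limit of detection.

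The deposited signal of a miRNA is the sum of its detected probes after background subtraction, in arbitrary units of intensity, and each value below is followed by the error that the scanner software gave it. The 6 members were bright, and on each array the brightest of them took rank 6 among the human miRNAs and the dimmest rank 37 to 39. In each condition the members together held 5.97% to 8.25% of the signal summed over the 197 miRNAs. Signals of different miRNAs depend on their probes, so these ranks and shares do not compare amounts of miRNA. The ratios below were taken within each miRNA across the arrays.

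The members with the AAAGUGC seed were miR-17 and miR-20a, which repress inhibitors of the cell cycle such as CDKN1A. The signal of miR-17 was 1380 ± 94.1 in the control at 2 h, 943 ± 64.2 with berberine at 2 h, 1057 ± 71.5 in the control at 4 h and 1612 ± 109 with berberine at 4 h. The signal of miR-20a was 2476 ± 180, 1699 ± 124, 2101 ± 154 and 3081 ± 224 in the same order. Both were lowest on the berberine array at 2 h and highest on the berberine array at 4 h.

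The miR-19 seed, GUGCAAA, is carried by miR-19a and miR-19b, which are known as the main oncogenic members of the cluster in B-cell lymphoma. The signal of miR-19a was 1393 ± 99.5 in the control at 2 h, 921 ± 65.9 with berberine at 2 h, 1219 ± 87.1 in the control at 4 h and 1790 ± 128 with berberine at 4 h. The signal of miR-19b was 2364 ± 177, 1531 ± 114, 2190 ± 163 and 3116 ± 230 in the same order. The arrays came in the same order for both.

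The remaining seeds are carried by miR-18a and miR-92a. The signal of miR-18a was 471 ± 35.2 in the control at 2 h, 316 ± 23.7 with berberine at 2 h, 408 ± 30.6 in the control at 4 h and 557 ± 41.2 with berberine at 4 h. The signal of miR-92a was 652 ± 50.4, 464 ± 35.7, 569 ± 43.5 and 848 ± 64.9 in the same order. All 6 members therefore put the 4 arrays in 1 order, and it is also the order of the 75th percentiles of the arrays.

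**Figure D1:**
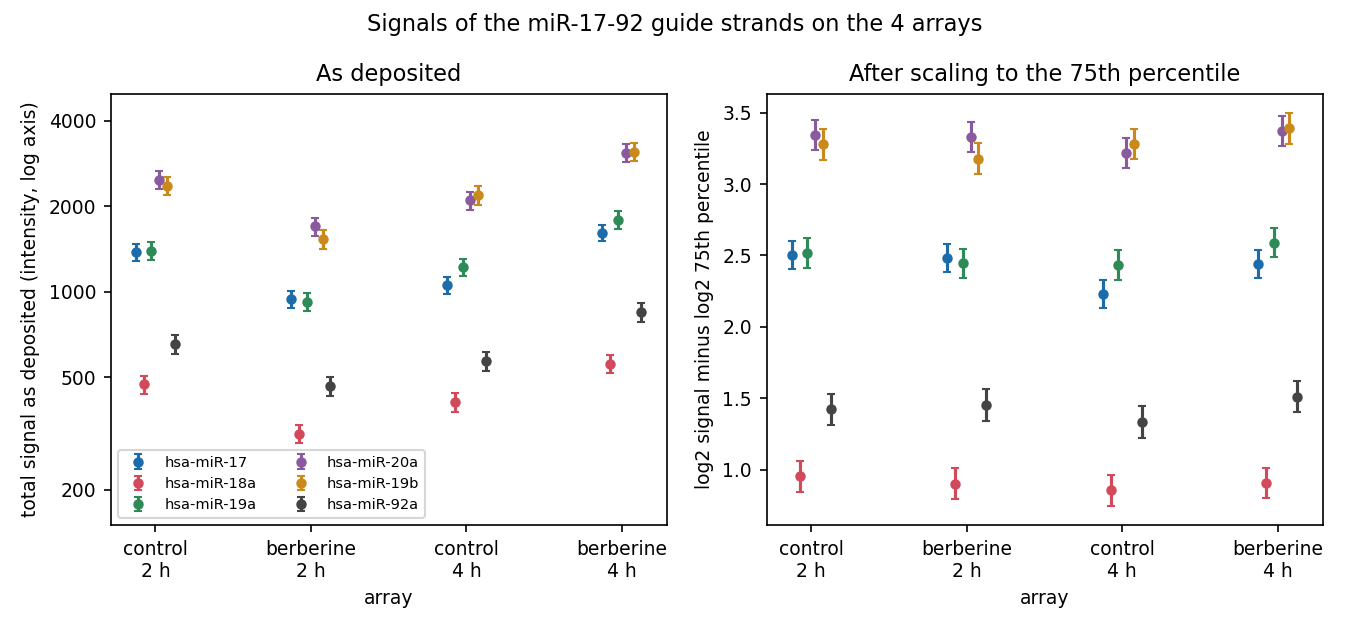
Total signal of each guide strand on the 4 arrays, as deposited (left, intensity on a log axis) and as log2 signal minus the log2 75th percentile of the array (right); points are single arrays and bars are 1 error of the scanner software. On the left every member is lowest with berberine at 2 h and highest with berberine at 4 h, and on the right the values of a member span only 0.10 to 0.27 on the log2 scale.

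As deposited, the berberine signal was 0.648 to 0.711 of the control signal at 2 h for the 6 members, and 1.37 to 1.53 of it at 4 h. On the log2 scale the members' median was -0.56 at 2 h and 0.55 at 4 h, and the median over all measured miRNAs was -0.55 and 0.51. The shift of the members was thus close to that of the whole array. To compare a member with the rest of the array, its log2 signal was taken minus the log2 75th percentile over the 197 miRNAs, and all values below are on this scale unless stated. The plot of signals by array shows both versions.

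After scaling, the values of a member over the 4 arrays spanned from 0.10 (miR-18a) to 0.27 (miR-17) on the log2 scale. The control array at 4 h gave the lowest value of 5 members, and the berberine array at 2 h gave that of miR-19b. The berberine array at 4 h gave the highest value of 4 members, and the control array at 2 h that of miR-17 and miR-18a. Of the 36 pairs of arrays over the 6 members, 1 differed by more than 1.96 standard errors (SE), and it was the pair of control arrays for miR-17. No neighbours in any of these orders differed beyond that range.

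The question at 2 h was whether berberine shifts these miRNAs early. With berberine over control, the log2 ratio of miR-17 was -0.02 (SE 0.14) and that of miR-20a was -0.02 (SE 0.15). It was -0.07 (SE 0.15) for miR-19a and -0.10 (SE 0.15) for miR-19b. It was -0.05 (SE 0.15) for miR-18a and 0.03 (SE 0.16) for miR-92a. No member was past 2-fold, where 0.508% of the 197 measured miRNAs were higher and 0.508% lower (1 each way, hsa-miR-21* and hsa-miR-431*, named after their values were seen). No member was beyond 1.96 SE, where 7.11% of the miRNAs were higher and 2.03% lower. The members' median of -0.04 stood beside -0.02 over all 197, 1 member (miR-92a) was above 0 where 42.1% of the miRNAs were, and 5 of the 6 were within the middle quartiles of all, -0.09 to 0.08. Over the members, the 95% ranges ran from 0.758-fold to 1.27-fold. These ranges hold the software errors only and not the spread between arrays or cultures, so they do not give the smallest detectable shift.

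At 4 h all 6 log2 ratios were above 0, as were 69.7% of the 218 miRNAs measured there. The ratio of miR-17 was 0.21 (SE 0.14) and that of miR-20a was 0.15 (SE 0.15). It was 0.16 (SE 0.15) for miR-19a and 0.11 (SE 0.15) for miR-19b. It was 0.05 (SE 0.15) for miR-18a and 0.18 (SE 0.16) for miR-92a. The members' median was 0.15, a ratio of 1.11, beside 0.11 over all 218, and all 6 were within the middle quartiles of all, -0.02 to 0.23. No member was past 2-fold (0.459% of the miRNAs were higher and 0.459% lower) or beyond 1.96 SE (8.72% higher and 2.75% lower). Over the members, the 95% ranges ran from 0.842-fold to 1.40-fold. The sign at 4 h depends on the scaling. With the arrays scaled to their medians the members' median ratio was -0.02, and with quantile normalization it was 0. With the percentile taken over all human miRNAs, detected or not, it was -0.25. That last setting also gave 5.07 at 2 h, where the percentile with berberine fell on undetected values.

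**Figure D2:**
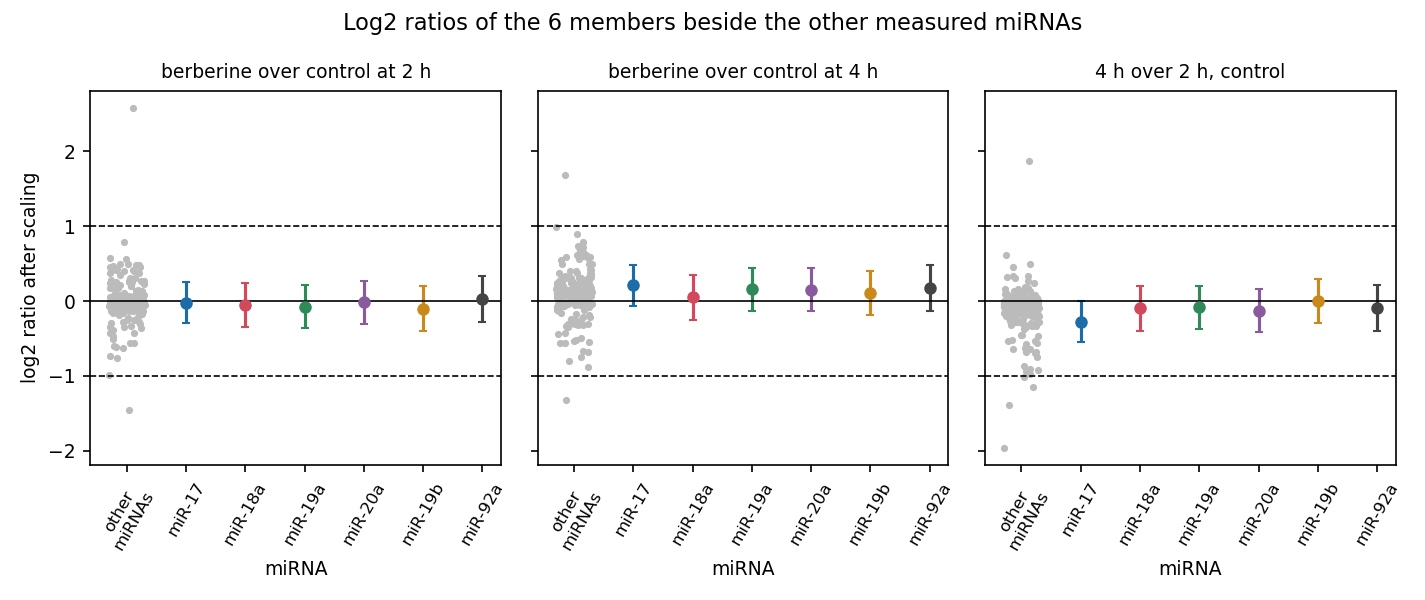
Log2 ratio of each guide strand after scaling, for berberine over control at 2 h, berberine over control at 4 h and the control array at 4 h over that at 2 h; points are single ratios, bars are 1.96 SE, grey points are the other measured miRNAs, and dashed lines mark 2-fold. Most members lie near the middle of the grey points, and miR-17 in the control arrays is the only value whose bar stays on 1 side of 0.

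Over both times, with treatment and time point in limma and the 2 times in place of replicates, the log2 difference was 0.09 for miR-17, 0.07 for miR-20a, 0.04 for miR-19a, 0.004 for miR-19b, -0.0007 for miR-18a and 0.10 for miR-92a. The SE was 0.21 for each. The adjusted p (limma, Benjamini-Hochberg over 197 miRNAs) was 0.997 for each member, and over 16 alternative settings it was between 0.701 and 1. No member passed, and none had an unadjusted p under 0.05 in limma. Of the 197 miRNAs, 0.508% were called higher, which is hsa-miR-21* alone (log2 difference 2.13, SE 0.21, adjusted p in limma 1.34e-11, again named after its values were seen). None (0%) were called lower, and 9 in all had an unadjusted p under 0.05. The members' median of 0.05 stood beside 0.06 over all 197. The fit has 1 residual degree of freedom, so it borrows its spread from all miRNAs, and these p-values describe 4 arrays and not separate cultures.

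Between the times, 5 of the 6 members had a ratio under 0 at 2 h and above 0 at 4 h, beside 48.7% of the 197 miRNAs, and opposite signs in either order were seen for the same 5 members beside 67.5% of the miRNAs. The exception was miR-92a, which was above 0 at both. The 4 h ratio minus the 2 h ratio was 0.23 (SE 0.20) for miR-17, 0.23 (SE 0.21) for miR-19a and 0.21 (SE 0.21) for miR-19b. It was 0.17 (SE 0.21) for miR-20a, 0.14 (SE 0.22) for miR-92a and 0.10 (SE 0.22) for miR-18a. No difference was beyond 1.96 SE, and 68.5% of all 197 miRNAs were positive as well, with a median of 0.14.

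The 2 control arrays show how far a member differs without berberine, although time and array cannot be told apart there. From 2 h to 4 h in the controls, the log2 ratio of miR-17 was -0.27 (SE 0.14), which is 0.827-fold. It was the only member beyond 1.96 SE, beside 6.39% of the 219 measured miRNAs that were lower by that measure and 0.457% that were higher. None of the members was past 2-fold (0.457% higher and 1.83% lower) and none was above 0, where 22.8% of the miRNAs were. The ratio was -0.13 for miR-20a, -0.10 for miR-18a, -0.09 for miR-92a, -0.08 for miR-19a and -0.0001 for miR-19b. The members' median was -0.09, and that of all 219 was -0.08. Within the middle quartiles of all, -0.19 to -0.01, were 4 of the 6, with miR-17 below them and miR-19b above. The low value of miR-17 on the control array at 4 h is also the denominator of its berberine ratio at 4 h, the highest of the 6, so these 2 values are not independent. The miR-17 ratio between the controls was -0.06 with median scaling, so its place beyond 1.96 SE depends on the scaling. Relative to the median of the 6 members, which no constant scaling of an array can change, it was -0.18 (SE 0.14).

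From 2 h to 4 h with berberine, the ratios of the members ran from -0.04 (miR-17) to 0.21 (miR-19b) with a median of 0.05, and the median of all 197 was 0.05. No member was past 2-fold (1.02% of the miRNAs were higher and 2.03% lower), and 5 were above 0, beside 59.4% of all. Without scaling, miR-19b was past 2-fold there (2.04-fold). No member was beyond 1.96 SE, where 4.57% of the miRNAs were higher and 15.2% lower.

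The members differed little from each other. Among the 15 pairs of members, the largest difference between their ratios was 0.13 at 2 h, 0.16 at 4 h and 0.27 between the controls. None of these pairs differed by more than 1.96 SE in any of the 3 comparisons, with an SE of up to 0.22. Relative to the median of the members, the lowest ratio at 4 h was that of miR-18a at -0.10 (SE 0.15) and the highest that of miR-17 at 0.06 (SE 0.14). The close pair miR-19a and miR-19b, and the close pair miR-17 and miR-20a, were among the pairs that were not beyond the errors. The errors were wide beside the spread of the members, whose standard deviation was 0.05 at 2 h and 0.06 at 4 h.

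Each member was read by its own probes, 3 for miR-17 and 2 for each of the others. The 13 probes had 5 to 8 spots each, and all 384 member spots over the 4 arrays were well above background. Of these spots, 33 were flagged as outliers by the software, and they were kept in the spot variation and spot overlap given below. The spots of a probe varied by a median coefficient of variation of 4.32% on an array, whereas the software gave each probe an error of 10.0% to 10.1%. In 2 cases, both on the control array at 4 h, the spots varied more than the software error, by 19.2% for a probe of miR-19a and by less for a probe of miR-17. Neither measure includes the spread between cultures. At 2 h the probe ratios ran from -0.13 to 0.07, and 4 of the 13 were above 0. At 4 h they ran from 0.01 to 0.31, and all 13 were above 0. Probes of 1 member differed from each other by up to 0.11 at 2 h and by up to 0.15 at 4 h, both for miR-17.

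The 3 probes of miR-17 had ratios of 0.31, 0.17 and 0.22 at 4 h, and of -0.20, -0.23 and -0.31 between the control arrays. At 2 h the scaled spots of 1 probe, of miR-19b (ratio -0.13), did not overlap between berberine and control. The scaled spots of all 3 miR-17 probes did not overlap between berberine and control at 4 h, nor did those of 1 miR-18a probe. Between the control arrays the spots did not overlap for 2 of the 3 miR-17 probes and for 1 miR-20a probe. The 3 miR-17 probes thus shared a sign at 4 h, all above 0, and between the controls, all below 0. Both comparisons use the control array at 4 h, so they are not independent. At 2 h the ratios of these probes were 0.07, -0.05 and -0.02. Spots and probes of 1 array share its RNA and its hybridisation, so they are not replicates of a condition.

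**Figure D3:**
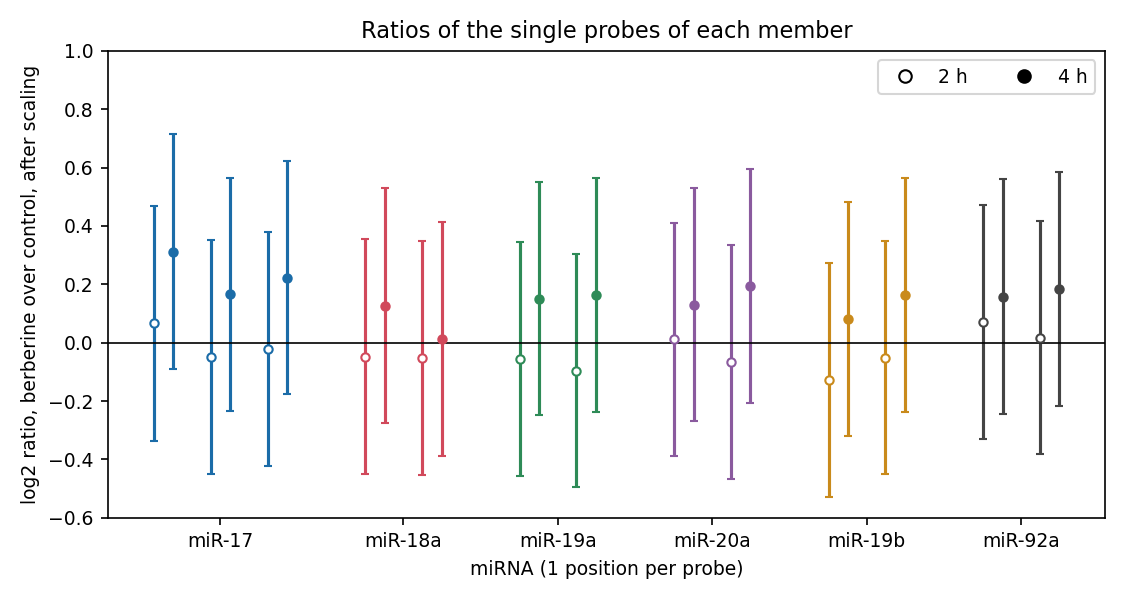
Log2 ratio of berberine over control for each of the 13 probes after scaling, at 2 h (open points) and at 4 h (filled points), with bars of 1.96 SE from the probe errors of the scanner software. All 13 probes are above 0 at 4 h and 4 are at 2 h, and every bar crosses 0.

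The other arm of each hairpin, the passenger strand, is mostly degraded after processing, and it comes from the same primary transcript. Of the 6 passenger strands, 3 were detected on all 4 arrays (hsa-miR-17*, hsa-miR-20a* and hsa-miR-19b-1*), and 3 on none (hsa-miR-18a*, hsa-miR-19a* and hsa-miR-92a-1*). The signal of hsa-miR-17* was 67.6 in the control at 2 h, 45.1 with berberine at 2 h, 61.0 in the control at 4 h and 80.0 with berberine at 4 h. That of hsa-miR-20a* was 17.1, 9.25, 15.7 and 17.3, and that of hsa-miR-19b-1* was 7.88, 4.36, 6.89 and 8.79, in the same order. All 3 were lowest on the berberine array at 2 h, like the guide strands. Both hsa-miR-20a* and hsa-miR-19b-1* were dim, since the lowest detected signal of an array was 1.79 to 2.52. The signal of hsa-miR-20a* rests on 1 of its 2 probes on each array.

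The log2 ratio of berberine over control for hsa-miR-17* was -0.06 at 2 h and -0.01 at 4 h. It was -0.36 and -0.26 for hsa-miR-20a*, and -0.33 and -0.05 for hsa-miR-19b-1*. None was past 2-fold or beyond 1.96 SE at either time, and limma called none (adjusted p 0.997 for each, limma, unadjusted 0.141 to 0.870). At 4 h the sum of hsa-miR-19b-1* holds 1 detected probe in the control and 2 with berberine, and with the same probes summed its ratio was -0.57. The ratio of the passenger minus that of its guide was below 0 in each hairpin at each time, from -0.04 (SE 0.24, miR-17 at 2 h) to -0.41 (SE 0.30, miR-20a at 4 h). When each sum was kept to probes that every array detected, the difference of miR-19b at 4 h was -0.59 (SE 0.33), the lowest of the 6. None of the 6 differences was beyond 1.96 SE in either version. The passengers turned sign at 2 h with normexp background correction (0.08 for hsa-miR-17*, 0.21 for hsa-miR-20a* and 0.29 for hsa-miR-19b-1*), and hsa-miR-19b-1* did so with quantile normalization too (0.29).

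The miR-106b-25 cluster on chromosome 7 and the miR-106a-363 cluster on chromosome X are paralogs of miR-17-92 and carry guide strands with the same seeds. The cluster on chromosome X also holds the second hairpins of miR-19b and miR-92a, which were counted with the members. Of the 7 other guide strands, miR-106a was not analysed here, miR-363 was detected on no array and 5 were detected on all 4. Their mature sequences, also from RefSeq, are given with that of miR-32 because they differ from the members in a few bases outside the seed or share the seed alone.
hsa-miR-106b: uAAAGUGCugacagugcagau
hsa-miR-93: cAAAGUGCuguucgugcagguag
hsa-miR-20b: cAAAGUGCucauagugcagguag
hsa-miR-18b: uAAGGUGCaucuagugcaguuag
hsa-miR-25: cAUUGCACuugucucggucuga
hsa-miR-32: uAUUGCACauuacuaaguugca

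From miR-18a to miR-18b there is 1 difference, A20U, and from miR-20a to miR-20b there are 2, U1C and U10C. From miR-17 to miR-20b there are also 2, U10C and C12U, and from miR-17 to miR-106a 1, C1A. Each of these pairs may share signal on the array. At 2 h the log2 ratio of berberine over control was -0.09 for miR-106b, 0.06 for miR-93, -0.03 for miR-25, 0.02 for miR-18b and -0.03 for miR-20b. At 4 h it was 0.24, 0.01, 0.13, 0.10 and 0.16 in the same order. The median of the 5 was -0.03 at 2 h and 0.13 at 4 h. None was past 2-fold, none was beyond 1.96 SE and limma called none of them.

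Over the whole RefSeq list, 13 other human miRNAs carry 1 of the 4 member seeds, and 11 of them are in the array files. The 6 detected on all arrays were the 5 paralogs and miR-32. The signal of miR-32, which shares the AUUGCAC seed of miR-92a, was 77.3 in the control at 2 h, 53.2 with berberine at 2 h, 70.2 in the control at 4 h and 103 with berberine at 4 h. Its log2 ratio was -0.01 at 2 h and 0.15 at 4 h. The other 5, which are miR-363, miR-92b, miR-367, miR-519d and hsa-miR-526b*, were detected on no array. The median of the 6 that were measured was -0.02 at 2 h and 0.14 at 4 h, beside -0.04 and 0.15 for the members themselves.

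**Figure D4:**
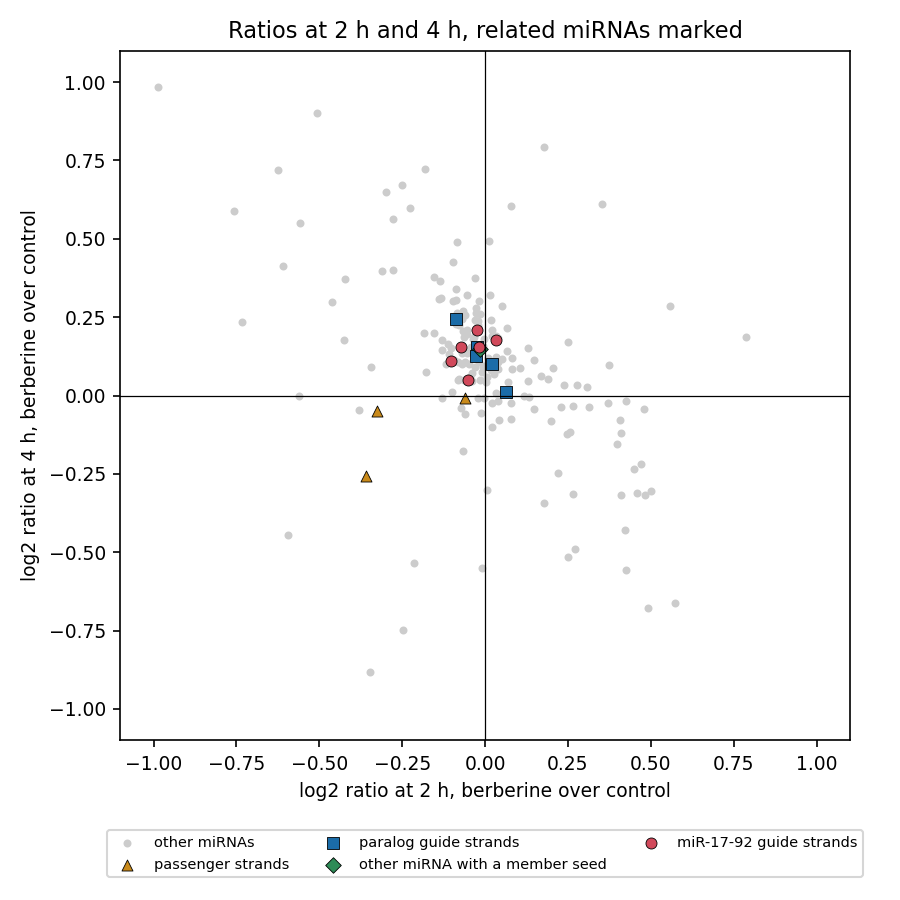
Log2 ratio of berberine over control at 4 h against that at 2 h after scaling, for the miRNAs detected on all 4 arrays; each point is 1 miRNA and the guide strands, passenger strands, paralogs and miR-32 are marked, with 194 miRNAs drawn and 3 outside the axes. The guide strands and paralogs lie close together near the centre of the points, and the 3 passenger strands are at or below 0 on both axes.

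The plot of the 4 h ratio against the 2 h ratio places the members among all miRNAs. To find the miRNAs most like them, each scaled log2 profile was centred on its own mean over the 4 arrays, and its Euclidean distance to the mean profile of the members was taken. Outside the lists above, the nearest of the 197 were hsa-miR-148a (distance 0.01), hsa-miR-29a (0.03) and hsa-miR-425 (0.04), and the median distance of all was 0.18. The signal of miR-148a, also used as a liver marker, was 1870 in the control at 2 h, 1253 with berberine at 2 h, 1593 in the control at 4 h and 2313 with berberine at 4 h. Its log2 ratio was -0.05 at 2 h and 0.14 at 4 h. The ratios of miR-29a were -0.04 and 0.18, and those of miR-425 were -0.06 and 0.14. The members themselves took ranks from 3 (miR-20a) to 81 (miR-17) in this order, although their own values form the mean. With 4 arrays such distances are a description.

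The place of the members depends on what an array is scaled to. Some very bright features hardly differed between arrays in deposited signal. The signals of hsa-miR-720 and hsa-miR-1274b, now regarded as fragments of transfer RNA and chosen here after their values were seen, summed to 52145 to 55585 on the 4 arrays. They made up 46.5% of the summed signal in the control at 2 h, 53.1% with berberine at 2 h, 47.9% in the control at 4 h and 39.9% with berberine at 4 h. Each array was also scaled to the signal summed over the 197 miRNAs without the members, a choice added after the data were seen. The members' ratios then lay between -0.37 and -0.23 at 2 h, and at 4 h between 0.18 and 0.34. No member was past 2-fold in that version either. The result by errors did change, since a constant scaling leaves each SE as it was. The lowest ratio at 2 h was that of miR-19b (SE 0.15), and the highest at 4 h was that of miR-17 (SE 0.14). Both were then beyond 1.96 SE. Without scaling, all 6 members were beyond 1.96 SE at both times. Their ratios were -0.63 to -0.49 at 2 h and 0.45 to 0.61 at 4 h, with an SE of up to 0.16. Whether the brightness of the arrays moved with the treatment or with the amount of labelled RNA cannot be told apart.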

How the data were processed

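Total RNA of HepG2 cells was labelled with Cy3 and hybridised to Agilent human miRNA arrays, 1 per condition, on 1 slide. The authors deposited the output of Agilent Feature Extraction 10.7.3.1 (as named in the submitters' processing notes), with intensities of each spot, probe and miRNA that are background-subtracted and not scaled between arrays. A second deposited table holds the authors' own ratios of berberine over control and was not used. Undetected miRNAs are listed at 0.1, and ratios were taken only where a miRNA was detected on both arrays. The 4 arrays limit the precision, since each group has 1.

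From each log2 total signal, the log2 of the array's 75th percentile was subtracted. The percentile was taken over the 197 miRNAs that every array detected, leaving aside control spots and 88 viral miRNAs. The SE of a ratio came from the Feature Extraction errors, and a 95% range is 1.96 SE. The threshold of 2-fold is that of the study's methods, and 0.05 was used for adjusted p-values. limma 3.58.1 in R 4.3.3 was fitted to all 197 miRNAs and tested on simulated data, and Python 3.11.15, numpy 2.4.6, pandas 2.3.3 and matplotlib 3.10.9 were used for the rest.

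Alternatives were other scalings, probe summaries, normexp background correction with an offset of 50, a fold of 1.5, a filter on dim miRNAs, an intensity trend, no time point, and each array left out. The miRNAs named by rule are the 6 members, the detected members of the passenger, paralog and seed lists, and the 3 miRNAs most like the members. List members that were undetected or not analysed, and liver markers, are named as well. Outside that rule, hsa-miR-21*, hsa-miR-431*, hsa-miR-720 and hsa-miR-1274b were picked after their values were seen. The members, lists and tests were chosen with earlier results of these data known. Array names were matched by name to RefSeq for 24 of 24 miRNAs.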

Additional observations from a re-analysis of the deposited data

Results flagged for a closer look

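For 5 members the single ratio of berberine over control was below 0 at 2 h and above 0 at 4 h, and this was noted as a difference between the times. The difference itself was not tested, since each time has 1 array per condition. The 4 h ratio minus the 2 h ratio on the log2 scale was 0.23 for miR-17, 0.10 for miR-18a, 0.23 for miR-19a, 0.17 for miR-20a and 0.21 for miR-19b. The errors of these differences were 0.20 to 0.22, so none was beyond 1.96 SE. Of all 197 miRNAs, 48.7% were likewise below 0 at 2 h and above 0 at 4 h, and 67.5% had opposite signs in either order.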

How the results depend on the processing

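No paired analysis was possible because each condition has 1 array, and the groups share only the replicate number 1, so that no replicate number could serve as a block. The limma fit compares the treatments within each time through its time term. No member was called by limma under any of the 16 alternatives, and with the 75th percentile over detected miRNAs none was past 2-fold or 1.5-fold for berberine over control at 2 h or 4 h. Without scaling, the members' median log2 ratio was -0.56 at 2 h, 0.55 at 4 h and 0.86 from 2 h to 4 h with berberine, where miR-19b was past 2-fold (1.03). With the 75th percentile taken over all human miRNAs, which falls on undetected values where few are detected (199 of 851 with berberine at 2 h), all 6 members were more than 2-fold higher at 2 h, and the medians were 5.07 at 2 h, -0.25 at 4 h, 0.41 between the controls and -4.96 from 2 h to 4 h with berberine. Scaled to the summed signal without the members, the last was 0.46.

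The log2 difference over both times in limma was near 0, and its sign turned in several settings, for which the cause was not tested. The summed signal named here leaves the members out. For miR-19a it was -0.021 without scaling, -0.051 with median scaling, -0.025 with quantile normalization, -0.011 with the brightest probe, -0.020 with normexp and -0.029 with the summed signal. For miR-19b it was -0.059 without scaling, -0.088 with median scaling, -0.031 with the percentile taken without the members, -0.081 with the brightest probe, -0.012 with the mean of all probes, -0.023 with the same probes, -0.064 with normexp and -0.066 with the summed signal. For miR-20a it was -0.025 with median scaling, -0.0018 with normexp and -0.0027 with the summed signal. With each array left out in turn, where the lone array of a treatment is assumed to vary like the others, the range was -0.044 to 0.23 for miR-17, -0.049 to 0.047 for miR-18a, -0.031 to 0.11 for miR-19a, 0.0045 to 0.13 for miR-20a, -0.10 to 0.11 for miR-19b and 0.06 to 0.15 for miR-92a. The value of -0.044 for miR-17 came without the control array at 4 h. The median background was 24 to 28, and all member spots were well above background.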
